A study of Mus musculus with 6 samples.

Results

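The genes described here belong to families known for splicing factors. These are the heterogeneous nuclear ribonucleoproteins (hnRNPs), the serine- and arginine-rich (SR) proteins, and the SF3 and U2AF proteins that recognise the 3' splice site. The others are the RBM proteins and the CELF, MBNL and STAR families. The genes were chosen by symbol among mm10 RefSeq protein-coding genes and numbered 90 of 21468 such genes with a known strand. The symbol alone decided, so "splicing factor genes" below names the set and not a shown function of each gene. By family, 21 were hnRNP, 13 SR or SR-like, 11 SF3 and U2AF, 32 RBM, 6 CELF, 3 MBNL and 4 STAR genes (*Khdrbs1*, *Khdrbs2*, *Khdrbs3* and *Qk*). AGO2, the Argonaute protein that carries miRNAs, was immunoprecipitated (IP) from UV-crosslinked whole brains of C57Bl/6J pups at postnatal day 0 by chimeric eCLIP, in which some reads join a miRNA to the RNA it was bound to. There was 1 WT IP library and 2 *Mov10* Deletion IP libraries (Deletion 1 and Deletion 2), each with a size-matched input, and no further treatment was given to any of them. The *Mov10* Deletion mice came from crossing a conditional knockout, in which a floxed *Mov10* gene is cut by Cre from *Emx1*, with a *Mov10*+/- mouse. *Emx1* Cre acts in cortical and hippocampal excitatory neurons, whereas the libraries were made from whole brain, which also holds cells that this Cre does not reach.

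Splicing factors bind pre-mRNA and set which exons are joined. SR proteins mostly promote the use of an exon and many hnRNPs repress it, while CELF and MBNL proteins often act against each other on the same exons. miRNAs guide AGO2 to mRNAs, mainly through pairing of the seed at the 5' end of the miRNA with the 3' UTR, and the nervous system is known for regulating splicing factors in this way as neurons mature.

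The miRNAs assigned most often to these genes, or found on the same stretch of a gene in all 3 libraries, are shown first, with miR-7a-5p, whose hairpin lies in *Hnrnpk*, as far as the RefSeq miRNA table (GRCm38.p6) held them. Of 103 miRNAs assigned to the splicing factor genes, 90 were in that table. The seed (bases 2 to 8) is in capitals and each sequence reads 5' to 3'. No seed was shared between these 8.
miR-9-5p: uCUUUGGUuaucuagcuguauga
miR-9-3p: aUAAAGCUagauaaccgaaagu
miR-125b-5p: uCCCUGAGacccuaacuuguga
let-7c-5p: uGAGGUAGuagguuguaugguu
miR-30c-5p: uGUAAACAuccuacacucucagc
miR-181a-5p: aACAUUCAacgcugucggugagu
miR-370-3p: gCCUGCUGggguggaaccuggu
miR-7a-5p: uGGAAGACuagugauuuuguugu

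All 3 libraries held RNA of the brain: each of 8 neuronal genes, among them *Tubb3* and *Snap25*, had AGO2 clusters in every library (1203 clusters in WT, 1940 and 1941 in Deletion 1 and 2), while 8 genes of other organs had 1, 5 and 5. *Mov10* itself had 11 AGO2 clusters in WT, of which 1 was enriched at a log2 of 4.0, and 9 in each Deletion library, none enriched. Such clusters do not measure the level of an mRNA. The Deletion libraries were listed on nearly the same clusters: 4544 of the 4556 clusters of Deletion 1 in splicing factor genes had identical limits in Deletion 2, so cluster positions are not replicated between them. Total reads per library are not in the files. From the log2 ratio and p-value of each cluster, the fewest IP reads of any enriched cluster were 16 in WT, 9 in Deletion 1 and 8 in Deletion 2, and the same cluster could therefore be called in a Deletion library on fewer reads than in WT. With 1 WT library no test between the genotypes was possible, and the values below describe these libraries. All intervals given are 95% Clopper-Pearson (exact) and speak of counting error alone.

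An AGO2 cluster is called enriched here when its log2 of IP over input was at least 3 and its −log10 p was at least 3. Of the 90 genes, 86 had a cluster in WT and 88 in each Deletion library. An enriched cluster was found in 16 of them in WT (18.6%, interval 11 to 28.4), in 37 in Deletion 1 (42.0%, interval 31.6 to 53.0) and in 30 in Deletion 2 (34.1%, interval 24.3 to 45.0). Over all protein-coding genes with a cluster, 20.6% were enriched in WT, 45.4% in Deletion 1 and 35.7% in Deletion 2, and the splicing factor genes as a whole stood near this background in each library. Both Deletion libraries called 21 of 88 (23.9%, against 27.0% of all such genes), all 3 libraries called 9 of 86 (10.5%, interval 4.90 to 18.9, against 16.6%), and both Deletion libraries but not WT called 12 of 86 (14.0%, against 13.0%). A library without a call could still hold a cluster above the log2 threshold: of these 12 genes, *Khdrbs3* (3.56) and *Celf5* (3.46) had one in WT that missed the p threshold, and the highest WT log2 of the others ran from 0.49 (*Tra2a*) to 2.93 (*Srsf4*). With at least 16 inferred IP reads asked for in every library, the genes called in both Deletion libraries but not in WT fell to 4, and those called in WT and in neither Deletion library rose from 1 to 5.

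**Figure D1:**
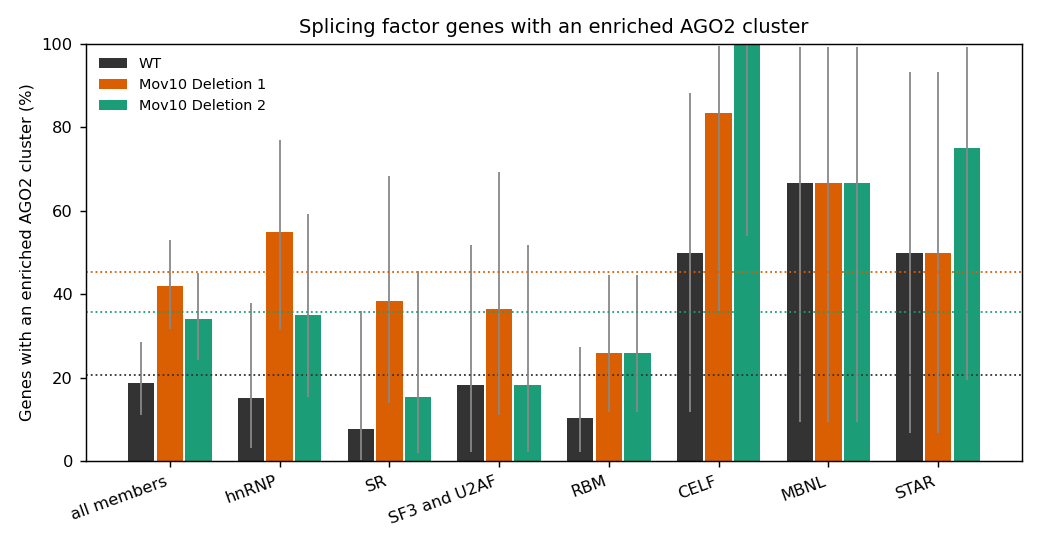
Share of genes with an AGO2 cluster that had an enriched cluster (%), by family and library; bars are single libraries, grey lines exact 95% intervals and dotted lines the share over all protein-coding genes in the library of that colour. All members together lie near the dotted lines, at 18.6%, 42.0% and 34.1%, and the CELF genes reach 50%, 83.3% and 100% on 6 genes.

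Most families hold few genes, and differences between them were not tested. The interval of a family's share held the background share in each family and library, except for CELF in Deletion 2 (54.1 to 100, against 35.7%) and RBM in Deletion 1 (11.9 to 44.6, against 45.4%). All 6 CELF genes had an enriched cluster in at least 1 library (3, 5 and 6 of 6 in WT, Deletion 1 and Deletion 2), and 2 of 3 MBNL genes had one in every library. Of the 13 SR genes 1, 5 and 2 had one, and none was enriched in all 3. Of the 32 RBM genes 3, 8 and 8 had one, with 19 enriched nowhere. The long genes weigh in these counts, since *Celf2* and *Celf4* alone held 16 of the 41 enriched clusters in WT, 60 of 156 in Deletion 1 and 30 of 100 in Deletion 2. At the level of single clusters, 1.43%, 3.42% and 2.20% of the clusters in splicing factor genes were enriched. Over all clusters in protein-coding genes these were 2.06%, 5.14% and 3.08%, above the interval of the member share in each library (upper bounds 1.93, 3.99 and 2.66). Without *Celf2*, *Celf4*, *Khdrbs2* and *Khdrbs3*, left out after their values were seen, 21 of 1393, 87 of 2088 and 63 of 2088 clusters were enriched. No interval was computed for these. The intervals above treat clusters as independent, although clusters that abut can share reads.

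Of the 21 hnRNP genes, which include the most abundant nuclear RNA-binding proteins, *Hnrnpk* was the only gene enriched in all 3 libraries. *Hnrnpk* encodes a poly(C)-binding hnRNP, and its strongest clusters reached a log2 of 5.46 in WT, 6.05 in Deletion 1 and 4.84 in Deletion 2. All 6 of these enriched clusters (2 a library) lay on the miR-7 hairpin that the gene carries, *Mir7-1* at chr13:58392779-58392886 on the minus strand of mm10, and they covered the mature miR-7a-5p at chr13:58392841-58392863, whose sequence is given above. The WT clusters ran from 58392837 to 58392868 and the Deletion clusters from 58392838 to 58392866. Outside the hairpin *Hnrnpk* had 6 clusters in each library, none enriched, with a highest log2 of 1.34, 0.20 and 1.1. Without clusters on miRNA hairpins, an alternative chosen after seeing the data, no hnRNP gene was enriched in all 3 libraries. The other splicing factor gene that holds a hairpin of the RefSeq table, *Sf3a3* with *Mir697*, had no cluster on it.

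The remaining hnRNP genes were called in fewer libraries. *Hnrnpa0*, an AU-rich element binding hnRNP, was the single gene enriched in WT and in neither Deletion library, at a log2 of 3.18 and 43 inferred reads, and its highest log2 of any cluster was 2.38 and 1.56 in Deletion 1 and 2. *Hnrnpul2*, *Hnrnpll* and *Hnrnpdl* were enriched in both Deletion libraries and not in WT. For *Hnrnpul2*, a U-like hnRNP, the strongest clusters reached 3.89 and 5.16, and the cluster at chr19:8832414-8832508, 1635 nt from the end of the gene, was enriched in both (3.89 and 4.06). *Hnrnpll*, known for exon choice in lymphocytes, reached 3.21 and 4.42, and *Hnrnpdl*, a paralogue of *Hnrnpd*, 3.16 and 3.25. In these last genes the enriched clusters of the Deletion libraries lay at different places. *Hnrnpd* and *Hnrnph2* were also called in both. Enriched in no library were 8 hnRNP genes, among them *Hnrnpa1*, *Hnrnpa2b1*, *Hnrnpc* and *Hnrnpu*, and *Hnrnpa1l2-ps2* had no cluster at all.

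Among the SR genes, *Srsf4* and *Tra2a* were enriched in both Deletion libraries and not in WT. *Srsf4* reached 4.26 in Deletion 1 and 5.16 in Deletion 2, with 11 and 15 inferred reads, and *Tra2a*, a sequence-specific activator of exons, reached 4.12 and 3.16. Their enriched clusters did not coincide between the libraries: the nearest of *Srsf4* lay 26536 nt from the end of the gene in Deletion 1 and 4390 nt in Deletion 2. Neighbouring enriched clusters often abut and can hold the same reads. Joined, the 156 enriched clusters of Deletion 1 became 113 and the 100 of Deletion 2 became 79. *Srsf3*, named after its values were seen, had the highest value of any splicing factor gene, 6.38 in Deletion 1 against 3.76 in WT, and no enriched cluster in Deletion 2.

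Of the SF3 and U2AF genes, *Sf3a1*, which encodes a subunit of the U2 snRNP, was enriched in all 3 libraries, at a log2 of 3.46 in WT, 4.97 in Deletion 1 and 3.84 in Deletion 2. The highest cluster of each library lay within 2000 nt of the gene's end. *Sf3b3* was called in WT and Deletion 1, *Sf3b4* and *U2af2* in Deletion 1 and *Sf3b2* in Deletion 2. The branch-site protein gene *Sf3b1* was called in none.

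*Rbm24* was the RBM gene enriched in all 3 libraries. It encodes a splicing regulator known from muscle and heart. The strongest clusters were 4.28 in WT, 4.61 in Deletion 1 and 5.06 in Deletion 2. Near its end a cluster was enriched in every library on the same stretch, at a log2 of 3.34 in WT (chr13:46430305-46430455, 48 inferred reads), 4.34 in Deletion 1 and 5.06 in Deletion 2 (chr13:46430317-46430475 in both, 35 and 28 reads). Both Deletion values lay above the WT value, while the WT read count was the highest. The median log2 of all enriched clusters in protein-coding genes had the same order, at 3.76 in WT, 3.97 in Deletion 1 and 4.25 in Deletion 2. *Rbm20*, a splicing regulator of titin in the heart, reached 4.12 and 4.84 in the Deletion libraries, in clusters 169727 and 67208 nt from the gene's end, and *Rbm25* 3.38 and 3.25 in a single cluster enriched in both. *Rbm44* had no cluster, and *Rbm43* and *Rbm46* had none in WT.

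The CELF genes, whose proteins bind GU-rich RNA in the nucleus and cytoplasm, held the most enriched clusters. *Celf1* reached a log2 of 4.76 in WT, 5.38 in Deletion 1 and 4.95 in Deletion 2. *Celf2*, the longest gene of the set at 856648 nt, had 9, 31 and 16 enriched clusters with highest values of 4.28, 4.97 and 4.95, and *Celf4* had 7, 29 and 14 with highest values of 3.86, 5.50 and 5.06. For all of *Celf1*, *Celf2* and *Celf4* the WT value was the lowest of the 3. WT was also lowest in the median log2 of all enriched clusters in protein-coding genes (3.76, against 3.97 in Deletion 1 and 4.25 in Deletion 2). The order is thus not particular to these genes. *Celf3* (3.97 and 4.50) and *Celf5* (3.66 and 4.38) were called in both Deletion libraries and not in WT. The *Celf5* cluster at chr10:81459501-81459631 was enriched in both, with 58 and 35 reads, and lay 274 nt from the gene's end.

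*Mbnl1* and *Mbnl2*, which encode muscleblind proteins, were enriched in all 3 libraries and *Mbnl3* in none. *Mbnl1* reached 4.08 in WT, 3.54 in Deletion 1 and 3.42 in Deletion 2, so that WT was the highest of the 3. A cluster near its end was enriched in every library on the same stretch (WT chr3:60627917-60627971, Deletion chr3:60627899-60627999), and a cluster at chr3:60626812-60626954 was enriched in both Deletion libraries (3.47 and 3.37). *Mbnl2* reached 3.76, 4.71 and 4.58. Of the STAR genes, *Khdrbs2*, which encodes a neuronal KH-domain splicing factor, reached 3.61, 4.50 and 4.25, and its relative *Khdrbs3* 3.50 and 4.25 in the Deletion libraries, against 3.56 in WT, where the p threshold was not met. *Qk* (Quaking), known for splicing in glia, had its highest cluster in WT, at 5.86 with 69 reads at chr17:10318981-10319133 near the start of the gene, and was called in Deletion 2 (3.58) but not in Deletion 1, where its highest log2 of 3.61 did not meet the p threshold.

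**Figure D2:**
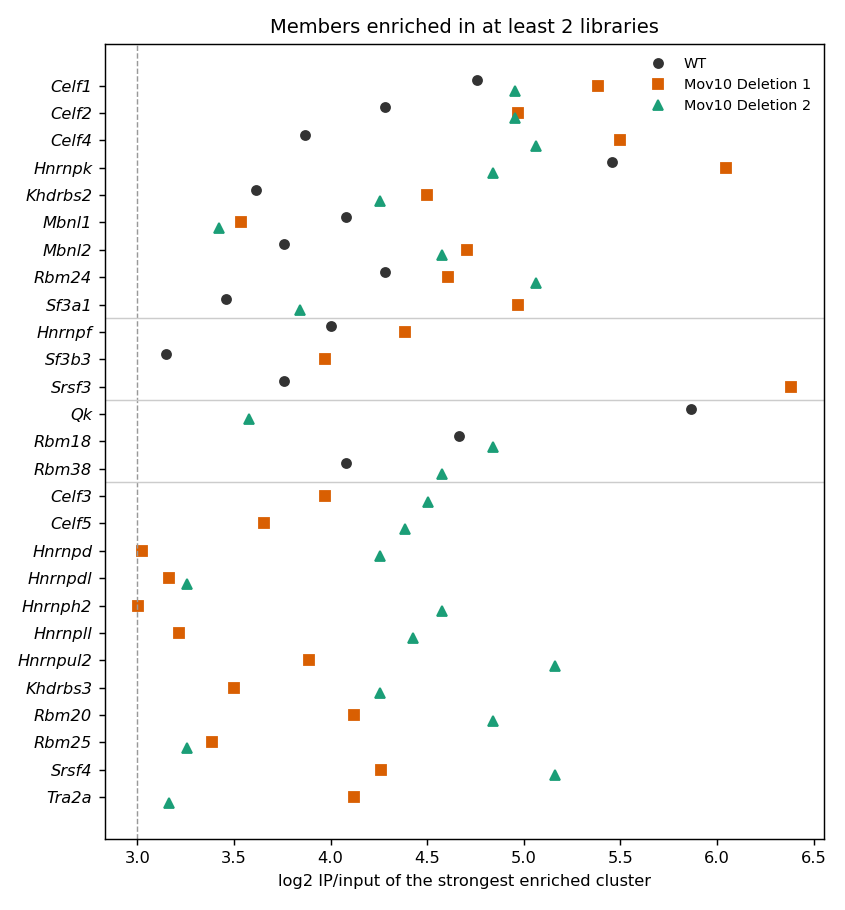
The log2 of IP over input of the strongest enriched cluster of each splicing factor gene called in at least 2 libraries; points are single libraries with no error, grey lines separate genes called in all 3, in WT and Deletion 1, in WT and Deletion 2, and in both Deletion libraries but not WT, and the dashed line marks the threshold of 3. Among the 9 genes called in all 3, WT is the highest for *Mbnl1* and lies between the Deletion values for *Hnrnpk*.

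Of the enriched clusters with limits common to both Deletion libraries, 16 were enriched in both, which is 10.3% of the 156 of Deletion 1 and 16% of the 100 of Deletion 2, against 13.2% and 22.0% over all protein-coding genes. They lay in 10 genes: 2 each in *Celf1*, *Celf2*, *Celf4*, *Hnrnpk*, *Hnrnpul2* and *Mbnl1*, and 1 each in *Celf5*, *Khdrbs2*, *Rbm24* and *Rbm25*. Of the 41 enriched clusters in WT, 18 (43.9%) overlapped an enriched cluster of at least 1 Deletion library and 7 overlapped both, against 65.0% overlapping at least 1 over all protein-coding genes.

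Chimeric reads named the miRNA. A target cluster lists a stretch of RNA with a miRNA and a score of at least 3, whose scale is not given in the sources used here, so scores are set side by side and not read as levels. Counting each pair of cluster and miRNA as an assignment, the splicing factor genes held 257 in WT (60 genes, 48 miRNAs), 340 in Deletion 1 (61 genes, 79 miRNAs) and 140 in Deletion 2 (44 genes, 41 miRNAs). A target cluster was found in 74 of the 90 genes in at least 1 library, in 31 in all 3 and in 16 in none. Of the 88 with an AGO2 cluster in at least 1 library these are 84.1% (interval 74.8 to 91.0) and 35.2% (interval 25.3 to 46.1), against 61.4% and 25.6% of all protein-coding genes with such a cluster. In WT 68.2% of the 88 had a target cluster, in Deletion 1 69.3% and in Deletion 2 50%, against 42.6%, 50.7% and 35.9%. The member genes also held more AGO2 clusters, with a median of 13 a gene in WT and 18 in each Deletion library against 9 and 13 over all protein-coding genes with a cluster, and the part of this in the shares was not tested. The 12 hnRNP genes with one in all 3 libraries stood beside 5 of 6 CELF, 3 of 4 STAR, 6 of 32 RBM, 2 of 13 SR, 2 of 11 SF3 and U2AF and 1 of 3 MBNL genes.

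miR-124-3p, the most abundant miRNA of neurons, led in each library with 108 of 257 assignments in WT (42.0%, interval 35.9 to 48.3), 117 of 340 in Deletion 1 (34.4%, interval 29.4 to 39.7) and 48 of 140 in Deletion 2 (34.3%, interval 26.5 to 42.8). The same miRNA took 43.5%, 35.6% and 37.9% of the assignments in all protein-coding genes, inside those intervals. miR-9-5p, a miRNA of neural progenitors and neurons, followed with 27, 27 and 14 assignments (10.5%, 7.94% and 10%, against 9.28%, 6.70% and 6.89%). miR-466i-5p had 14, 16 and 11, miR-125b-5p 13, 15 and 9, and let-7c-5p 9, 11 and 3. The fifth place in Deletion 2 went to miR-30c-5p with 5 assignments (3.57%, interval 1.17 to 8.14, against 0.737% of all). The 5 assignments of miR-30c-5p in WT (1.95%) and 5 in Deletion 1 (1.47%) were each in 5 genes, and the background (0.920% and 0.865%) lay inside their intervals.

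**Figure D3:**
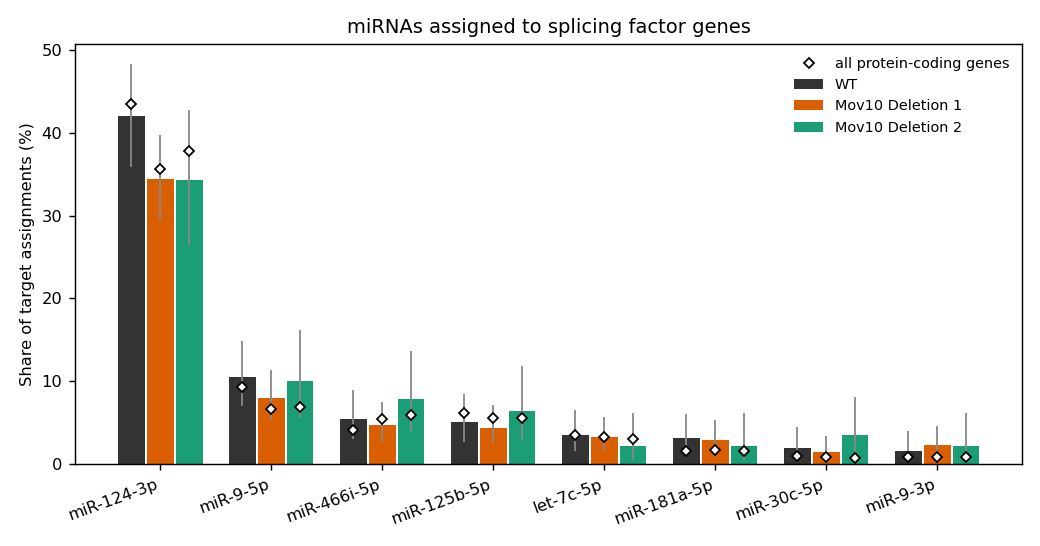
Share of target assignments in splicing factor genes taken by each miRNA (%), by library; bars are single libraries, grey lines exact 95% intervals and diamonds the share in all protein-coding genes of that library. miR-124-3p stands at 42.0%, 34.4% and 34.3%, with each diamond inside the interval of its bar.

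The assignments were concentrated in few genes. *Celf2* held 64, 106 and 43 and *Celf4* 31, 42 and 12, so that these genes took 37.0%, 43.5% and 39.3% of all assignments in WT, Deletion 1 and Deletion 2. *Qk* held 15, 22 and 6. The next were *Celf5* and *Hnrnpdl* in WT (6 each), *Celf1* and *Khdrbs3* in Deletion 1 (10 each) and *Hnrnpu* (6) and *Celf5* (5) in Deletion 2. Without *Celf2* and *Celf4* the share of miR-124-3p was 48.1%, 37.0% and 35.3%.

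Target clusters rarely fell on an enriched AGO2 cluster of the same library. In WT 17 of 257 assignments did (6.61%, interval 3.90 to 10.4, against 20.2% of all), in Deletion 1 28 of 340 (8.24%, interval 5.54 to 11.7, against 14.8%) and in Deletion 2 7 of 140 (5.0%, interval 2.03 to 10, against 13.6%). Without *Celf2* and *Celf4* the shares were 8.02%, 9.90% and 7.06%, with upper bounds of 13.3, 15.0 and 14.7, so the background then lay above the interval in WT alone. Assignments of a gene are not independent and no test was run.

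In 30 cases a target cluster of WT overlapped target clusters of the same miRNA in both Deletion libraries, in 13 genes and with 8 miRNAs. By Deletion cluster 29 of them were distinct, since neighbouring WT clusters of *Rbm24* with miR-124-3p overlapped the same Deletion cluster. miR-124-3p accounted for 16 of them, miR-9-5p for 5 and miR-125b-5p for 4. *Celf2* held 10 and *Qk* 4. Of the 296 and 130 distinct target clusters of Deletion 1 and Deletion 2 in these genes, 39 had identical limits in both. In the 30 cases the Deletion limits were the same in both libraries, except for *Celf4* with miR-466i-5p. The positions of these target clusters are therefore not replicated between the Deletion libraries either.

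*Qk* carried the pair with the highest lowest score, with miR-124-3p at chr17:10208389-10208537 in WT, 1918 nt from the end of the gene, and scores of 89.7 in WT, 66.3 in Deletion 1 and 39.2 in Deletion 2. No AGO2 cluster there was enriched in any library. Further *Qk* clusters of miR-124-3p scored 15.6, 8.25 and 13.5 (9791 nt from the end, where miR-9-5p was also assigned, at 9.67, 10 and 4.0) and 30.2, 20.6 and 5.74 (7031 nt from the end).

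*Hnrnpdl* carried miR-370-3p, on the same limits in all 3 libraries at chr5:100033848-100033961, 271 nt from the gene's end. The scores were 101 in WT, 19.9 in Deletion 1 and 12.6 in Deletion 2. This was the highest score of the shared set in WT, and miR-370-3p had no other assignment in these genes in any library. An AGO2 cluster that overlaps it was enriched in Deletion 2 alone (log2 3.25). *Hnrnpdl* also carried miR-125b-5p at chr5:100036482-100036535, with scores of 5.76, 6.04 and 5.05.

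In *Rbm24* both readouts met in every library. On the enriched stretch near its end, miR-124-3p scored 22.8 in WT, 22.1 in Deletion 1 and 7.97 in Deletion 2, and miR-181a-5p 7.70, 7.0 and 3.0. *Celf2* with miR-125b-5p met it by overlap, at scores of 6.88, 21.6 and 12 and a log2 of 3.22, 3.27 and 3.39. Its target cluster was chr2:6553935-6553987 in WT and chr2:6553925-6553991 in both Deletion libraries. The enriched cluster of Deletion 1 (chr2:6553823-6553930) overlapped only the edge of that target cluster and ended before the WT one. The enriched cluster of Deletion 2 was a different one (chr2:6553931-6553968). *Sf3a1* carried miR-124-3p in all 3 libraries (14.4, 8.61 and 9.96), on an enriched cluster in WT (3.46) and Deletion 1 (3.97) and not in Deletion 2.

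*Celf2* otherwise carried miR-124-3p far inside the gene, at chr2:6833956-6834118 (294262 nt from its end, scores 45.8, 17.6 and 14.7) and chr2:6713532-6713633 (173838 nt, 34.5, 19.1 and 7.0), and near its end at chr2:6539876-6539925 (182 nt, 11.1, 9.23 and 8.46). *Celf4* carried miR-124-3p (20.2, 13.5 and 21.0) and miR-466i-5p (9.01, 9.97 and 7.0), and *Celf3* carried miR-30c-5p (5.91, 6.0 and 5.0). *Hnrnpu*, which encodes the scaffold attachment factor, carried miR-125b-5p (10.9, 12.1 and 5.25) and miR-9-5p (3.73, 4.0 and 5.92). *Rbm33* carried miR-124-3p at 23.4, 9.88 and 4.84. *Sf3b1*, *Srsf6* and *Rbm39* shared miR-124-3p and *Rbm7* miR-125b-5p, each with a lowest score of 4.0 or less.

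A target cluster was also found in genes without AGO2 enrichment. Of the 43 genes enriched in no library, 29 had a target cluster in at least 1 library and 9 in all 3. These are 70.7% and 22.0% of the 41 that had an AGO2 cluster, against 36.6% and 6.09% of all protein-coding genes of this kind. In *Hnrnpu* the highest log2 of any cluster was 0.43 in WT, 2.0 in Deletion 1 and 1.29 in Deletion 2, and in *Rbm7*, an exosome adaptor protein gene, 0.34, 2.38 and 1.25, although both carried a miRNA on the same stretch in every library. In *Sf3b1* it was 1.63, 3.61 and 3.25, where the values above 3 did not reach the p threshold.

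The WT score was the highest of the 3 in 18 of the 30 cases and that of Deletion 2 the lowest in 21. *Rbm24* with miR-124-3p enters with WT scores of 22.8 and 3.22 against the same Deletion scores. Deletion 2 also had the fewest assignments, and how the score depends on depth was not tested.

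**Figure D4:**
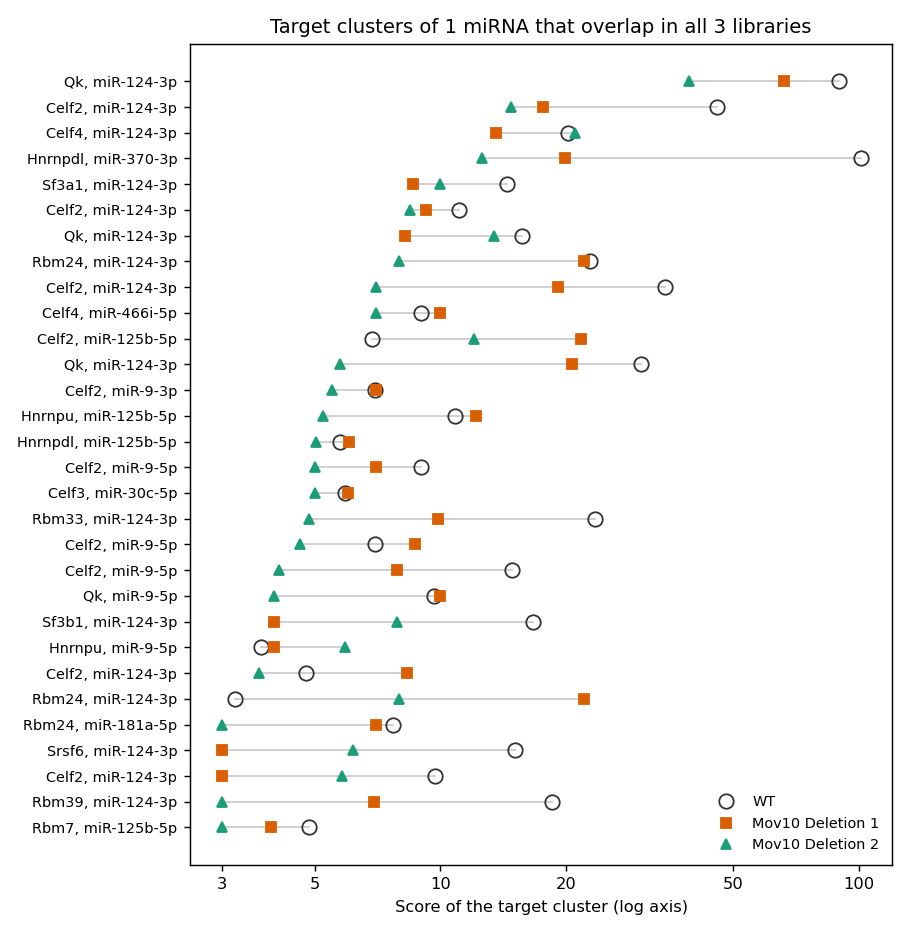
Scores of the 30 target clusters that overlap with the same miRNA in all 3 libraries (log axis, no error, the score's scale is not given), by gene and miRNA; open circles are WT, squares Deletion 1 and triangles Deletion 2, and the rows run from the highest lowest score (*Qk*, 39.2) down to 3.0. WT is the highest in 18 rows and Deletion 2 the lowest in 21.

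Most clusters lay outside the last 1000 nt of the gene. Of the enriched clusters, 6 of 41 in WT (14.6%, interval 5.57 to 29.2), 7 of 156 in Deletion 1 (4.49%, interval 1.82 to 9.03) and 5 of 100 in Deletion 2 (5.0%, interval 1.64 to 11.3) were within it, against 19.4%, 10.8% and 10.6% over all protein-coding genes. Of the distinct target clusters, 34 of 226, 25 of 296 and 15 of 130 were (15.0%, 8.45% and 11.5%, against 17.8%, 13.2% and 14.5%). The long genes move these values: without *Celf2*, *Celf4*, *Khdrbs2* and *Khdrbs3*, left out after their values were seen, the shares of target clusters were 22.6%, 14.6% and 17.3% and of enriched clusters 28.6%, 6.90% and 7.94%. Exons and introns were not separated, since no mm10 exon positions were at hand.

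**Figure D5:**
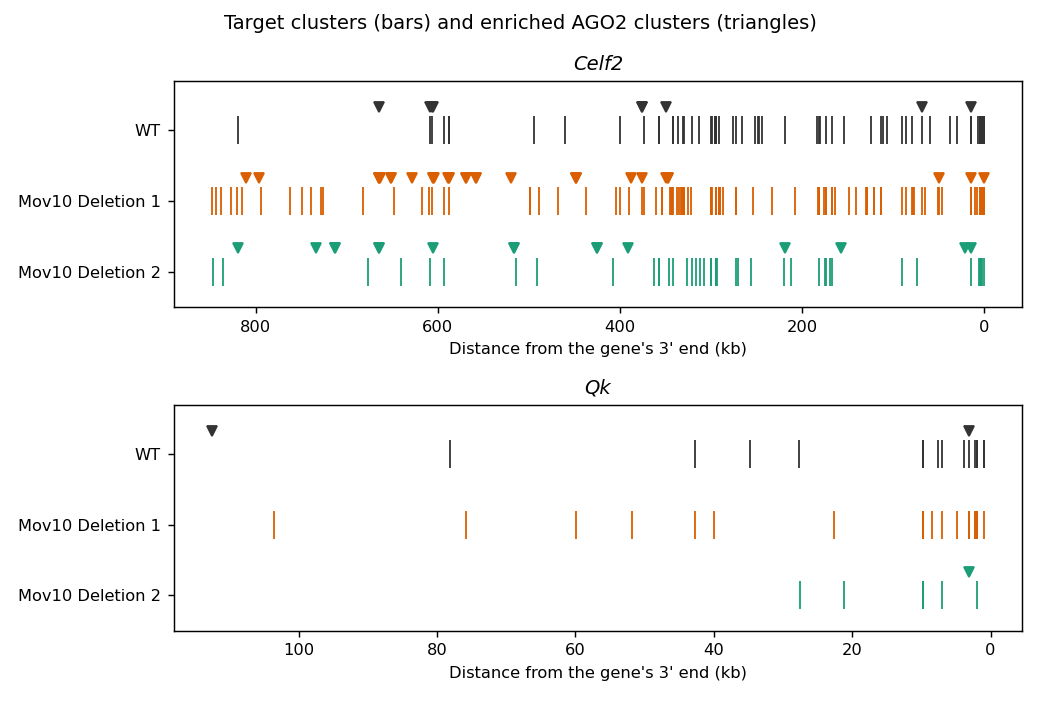
Target clusters (bars) and enriched AGO2 clusters (triangles) of *Celf2* and *Qk* by distance from the 3' end of the gene (kb, to scale), with a row for each library. The clusters of *Celf2* are spread over its whole length, and those of *Qk* lie mostly towards its end.

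Where the assigned miRNA had a sequence and the target cluster lay in the last exon of the gene's GENCODE vM39 canonical transcript (GRCm39), counted back from the transcript's end, the exon was searched for the 7 letters that pair with the seed. Counting back puts mm10 and GRCm39 ends side by side, so a match is a description and not a placed site. miR-124-3p and miR-466i-5p, which had no sequence here, were not searched. Of 114 such assignments 33 had a match at the same distance from the end as the cluster (13 of 42 in WT, 17 of 51 in Deletion 1 and 3 of 21 in Deletion 2), in 11 genes. Of the pairs named above, *Hnrnpdl* with miR-370-3p and *Rbm24* with miR-181a-5p were searched in all 3 libraries. Neither had a match anywhere in the last exon. The shared pairs *Rbm7* with miR-125b-5p and *Celf2* with miR-9-5p were also searched in all 3. Each had 1 match in the last exon, outside the target clusters. The following 30-base windows, 5' to 3' with the match in capitals, are among those found in WT and in a Deletion library. The list is not complete.
Celf5 and miR-30c-5p: cgtctagttcaTGTTTACgagctgtaaata
Srsf7 and miR-30c-5p: aaaagttatttTGTTTACattattataagg
Hnrnpul2 and miR-125b-5p: aaggaatgattCTCAGGGtttcagctcaca
Mbnl1 and miR-181a-5p: gaactgacagaTGAATGTgccaagcaaaac
Celf2 and miR-153-3p: cttaacaaaatCTATGCActtgctatcagg
Hnrnpa3 and miR-137-3p: taagctaaacaAGCAATAaaagggggaatg
The match lay 299 nt from the end in *Celf5*, 1433 nt in *Srsf7*, 1687 nt in *Hnrnpul2*, 2825 nt in *Mbnl1*, 242 nt in *Celf2* and 2465 nt in *Hnrnpa3*. The search itself ran over the whole length of the target cluster, 129, 109, 67, 84, 46 and 80 nt in the same order, of which the 30 bases shown are a part. Stretches as long as the cluster and at its distance from the end held the letters in 1.19%, 0.948%, 0.753%, 1.38%, 0.265% and 0.541% of cases. These were counted over the canonical protein-coding transcript of each gene whose last exon reaches that far, the gene's own included. The windows shown were picked because they held a match, so these shares do not test them. No such share was computed for the 33 of 114. In *Celf5*, *Hnrnpul2* and *Mbnl1* the matched stretches are those of AGO2 clusters named above as enriched in both Deletion libraries. The miRNA was assigned there in WT and Deletion 1.

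Of 45 other splicing genes whose symbols the rule did not take, whatever their family, 44 had clusters in each library. Of these, 14, 28 and 20 had an enriched cluster in WT, Deletion 1 and Deletion 2 (31.8%, 63.6% and 45.5% of the 44), against a background of 20.6%, 45.4% and 35.7%. No interval was computed for these shares. *Rbfox1* alone held 1147, 2241 and 2241 of the 2737, 4967 and 4967 clusters in the list. The part of cluster number in the shares was not tested. *Ptbp1*, a repressor of neuronal exons, reached a log2 of 6.34, 5.95 and 6.46, above every value of the 90 genes in WT and Deletion 2. *Rbfox3* held 20, 117 and 59 enriched clusters and *Rbfox1* 75, 155 and 77 target assignments, more than *Celf2* in each library. *Ddx5*, an RNA helicase, had 13, 18 and 10 target assignments and no enriched cluster.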

How the data were processed

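AGO2 chimeric eCLIP was deposited for 3 IP libraries; the 3 inputs enter only through the ratios. Per the study's methods and the submitters' processing notes, the authors' provider trimmed reads (UMI-tools 1.1.1, cutadapt 3.2), mapped them to mm10 (STAR 2.7.7a), assigned miRNAs with Bowtie 1.2.3 and called clusters with CLIPper. The deposited AGO2 files hold a log2 of IP over input and a −log10 p for each cluster (p capped at 400 on that scale). The deposited target files hold a miRNA and a score of unstated scale. Whether replicates were pooled for calling is not given in the sources used here.

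Clusters were assigned to RefSeq GRCm38.p6 gene bodies by overlap of at least 1 nt on the strand. Gene strands came from the RefSeq promoter table, or from GENCODE vM39 (13 of the 90 genes); the sources gave the same strand for 99.3% of 15832 genes. Enrichment needed at least 3 for both the log2 and the −log10 p. IP and input reads were inferred from each log2 and p, tested on simulated clusters. Python 3.11.15, pandas 2.3.3 and scipy 1.17.1 were used, with exact intervals. Genes were named by a rule: per family up to 5 genes enriched in all 3 libraries, genes of WT alone, up to 10 of both Deletion libraries and not WT, the 5 with most assignments in each library, genes sharing a target cluster of a miRNA in all 3 libraries (up to 20 clusters), and genes without clusters. The families, gene lists and rules were chosen with earlier results of these data known.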

Additional observations from a re-analysis of the deposited data

How the results depend on the processing

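The Deletion libraries needed fewer IP reads than WT for a call, the genotypes differ in number of libraries, and clusters that abut can share reads. These limits bear on each count below. No paired analysis was possible, because replicates are numbered within each genotype and no pairing of WT with *Mov10* Deletion libraries is given. No result comes from a test. The causes of the changes below were not tested beyond what each setting itself removes.

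With a −log10 p of at least 5, 23 genes were enriched in Deletion 1, 11 in both Deletion libraries and 5 in these but not WT, and the enriched clusters were 21, 70 and 56 in WT, Deletion 1 and Deletion 2. With a log2 of at least 2, 17 genes were enriched in all 3 libraries and the clusters were 109, 304 and 169. With a log2 of at least 4, 9 genes were enriched in WT, 20 in Deletion 1, 9 in both Deletion libraries, 4 in all 3, 5 in both Deletion libraries but not WT and 2 in WT and neither Deletion library, and the clusters were 13, 50 and 46. With at least 16 inferred IP reads, 22 genes were enriched in Deletion 1, 12 in Deletion 2, 11 in both, 4 in both but not WT and 5 in WT alone, with 70 and 26 clusters in Deletion 1 and 2. Without Mov10 Deletion replicate 1 or 2, genes enriched in the remaining Deletion library were 30 to 37, those also enriched in WT 12, those not in WT 18 to 25 and those of WT alone 4. Counts within the gene body, for clusters over a single gene and without clusters on miRNA hairpins stayed within 1.5 times.

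Target clusters of the same miRNA in all 3 libraries were 14 with clusters assigned to a single miRNA, 17 with a score of at least 5, 4 on enriched AGO2 clusters, 18 without *Celf2* and *Celf4* (chosen after seeing the data), and 46 to 84 without a Deletion replicate. With a score of at least 5, assignments were 111, 119 and 50 in WT, Deletion 1 and Deletion 2, in 38, 38 and 26 genes, and miR-124-3p took 51.4% in WT and 40.3% in Deletion 1 and miR-9-5p 18% in WT. On enriched AGO2 clusters, assignments were 17, 28 and 7, in 9, 8 and 6 genes, miR-9-5p took 3.57% in Deletion 1 and 0% in Deletion 2, and miR-124-3p 14.3% in Deletion 2. Without *Celf2* and *Celf4* assignments were 162, 192 and 85. Within the last 2000 nt lay 10.9% and 12% of the enriched clusters of Deletion 1 and 2 and 23.9%, 14.5% and 18.5% of the target clusters in WT, Deletion 1 and 2, and within the last 500 nt 8.41% of the target clusters in WT.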
